A study of Mus musculus with 8 samples.

Results

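Cells that had switched on a reporter of Mesp1 were compared with reporter-negative cells of the same stage, in mouse embryos at embryonic day (E) 6.5, the onset of gastrulation. The comparison used the 2 arrays labelled GFP+ and the 2 labelled GFP- at E6.5, which are 4 of the 8 arrays of the series, and took the difference within each replicate number across all 17097 genes with a name on the array. All embryos, positive and negative fractions alike, carried Mesp1-rtTA and Teto-H2B-GFP: a reverse tetracycline transactivator driven by Mesp1, and a nuclear histone H2B-GFP that answers to it. Living cells were sorted on GFP, 50 cells to an array, and their RNA was amplified over 25 cycles before hybridization to an Affymetrix mouse array. The other 4 arrays hold GFP+ and GFP- cells sorted in the same way at E7.5. The labels call the arrays of a group biological replicates 1 and 2, without saying whether arrays of the same number share embryos, how many embryos were pooled, or whether and when an inducing drug was given. GFP stands for the history of the reporter and H2B-GFP is long-lived, so a GFP+ cell need not contain Mesp1 mRNA. A GFP- cell can be any other living cell of the dissected embryo. In a sorted bulk sample, fewer cells of a type and less RNA per cell cannot be told apart.

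Mesp1 encodes a basic helix-loop-helix transcription factor that is switched on briefly in the nascent mesoderm leaving the primitive streak, including the progenitors of the heart. The streak forms at the posterior side of the epiblast, an epithelium, under Wnt, Nodal and BMP signals. Epiblast cells that enter it lose E-cadherin and other epithelial junction proteins, under repressors such as Snai1, and move away as mesenchyme between the epiblast and the visceral endoderm that covers the embryo.

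Mesp1 itself was the check of the sort. Its deposited log2 expression value was 9.75 and 10.03 in GFP+ replicates 1 and 2, against 5.64 and 6.26 in GFP- replicates 1 and 2. The fractions did not overlap. Mean levels were 9.89 ± 0.19 in GFP+ cells, against 5.95 ± 0.44 in GFP- cells (SD, n = 2 each). GFP+ exceeded GFP- by 3.94 (SE 0.23), or 15.3-fold (limma adjusted p = 0.0111). The GFP- level exceeded 4.38, the median over every deposited value, so the negative fraction was not at the bottom of the array's range for this gene.

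The promoters of Mesp1 and of Sp5 are printed here because both genes rose in GFP+ cells and because Sp5 is a known target of Wnt signalling. The sequences are from RefSeq on GRCm38.p6, running from 250 bases before to 50 bases after the annotated start. Capitals mark letters that match AGGTGTGA (the T-box motif), CTTTGAT (the TCF/LEF motif of Wnt signalling) or AGATAA (the GATA motif) on either strand. Mesp1 lies at chr7:79793541-79793840 on the minus strand and Sp5 at chr2:70474673-70474972 on the plus strand.
Mesp1: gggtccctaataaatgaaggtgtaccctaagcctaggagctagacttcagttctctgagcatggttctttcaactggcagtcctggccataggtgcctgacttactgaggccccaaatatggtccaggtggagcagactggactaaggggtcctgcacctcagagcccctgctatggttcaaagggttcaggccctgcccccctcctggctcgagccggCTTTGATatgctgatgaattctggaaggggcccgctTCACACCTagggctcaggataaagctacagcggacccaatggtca
Sp5: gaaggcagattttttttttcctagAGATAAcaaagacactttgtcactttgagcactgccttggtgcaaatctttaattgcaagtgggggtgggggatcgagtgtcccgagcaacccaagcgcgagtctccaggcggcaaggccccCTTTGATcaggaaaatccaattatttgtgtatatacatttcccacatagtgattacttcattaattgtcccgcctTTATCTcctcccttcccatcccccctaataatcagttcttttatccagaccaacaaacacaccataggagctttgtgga
The Mesp1 window held CTTTGAT at position -31 from the start and, as TCACACCT on the printed strand, the T-box letters at position 5. The Sp5 window held CTTTGAT at position -104 and the AGATAA letters at position -226 on the printed strand and at -29 on the opposite strand. Of the 30 genes that passed the test described next, 19 had a promoter in the RefSeq table, 10 of them higher and 9 lower in GFP+ cells. CTTTGAT was found in 2 of the 10 higher genes (Mesp1 and Sp5) and in 1 of the 9 lower genes (Rbp4), against 4.29% of all 27025 genes in the table. AGGTGTGA was found in 1 of the higher and 0 of the lower genes, against 1.48% of all genes in the table, and AGATAA in 2 (Klhl6 and Sp5) and 0 of them, against 12.7%. The motifs share no letters in these windows, and these matches are a description of letters only.

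GFP- replicates 1 and 2 stood further apart than the fractions of either replicate number. Over named genes, GFP+ and GFP- arrays of the same number correlated at r = 0.961 (replicate 1) and 0.969 (replicate 2), while GFP+ replicates 1 and 2 correlated at 0.963 and GFP- replicates 1 and 2 at 0.948. Between GFP- replicates 1 and 2, 2306 genes differed by 2-fold or more, and between GFP+ replicates 1 and 2, 1696 did, against 1489 between the fractions of replicate 1 and 1095 between those of replicate 2. Array medians were 4.20 and 4.22 in replicate 1 and 4.59 and 4.58 in replicate 2, giving GFP+ before GFP-. The differences between fractions in replicates 1 and 2 correlated at r = 0.396 across the 17097 genes, which are not independent replicates, and 56.3% of genes had the same sign in both. Among the 4275 genes of lowest level r was 0.0922, and among the 4274 of highest level 0.533. The median difference over all genes was -0.0237 in replicate 1 and 0.0128 in replicate 2.

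With the replicate number as a block, limma called 30 of 11706 genes tested (0.256%) at a Benjamini-Hochberg adjusted p under 0.05. Of these, 18 (0.154%) were higher and 12 (0.103%) were lower in GFP+ cells, and all 30 differed by 2-fold or more in both replicates. A wider description used no test: a gene counted as 2-fold when its difference was at least 1 on the log2 scale, in the same direction, in both replicates. By it GFP+ cells were above GFP- cells in 161 of the 17097 genes (0.942%) and below them in 222 (1.3%), and 35 (0.205%) differed 2-fold in opposite directions. Whether the arrays of the fractions overlapped was not counted over all genes, so where it is given it only describes the gene named. The test took its estimate of the spread from all 8 arrays. It called 9 genes without the block, 0 on the 4 E6.5 arrays alone (lowest adjusted p = 0.163) and 0 when any of the 8 arrays was left out (lowest adjusted p from 0.0677 to 0.261), while all 30 kept their direction in each of these fits.

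**Figure D1:**
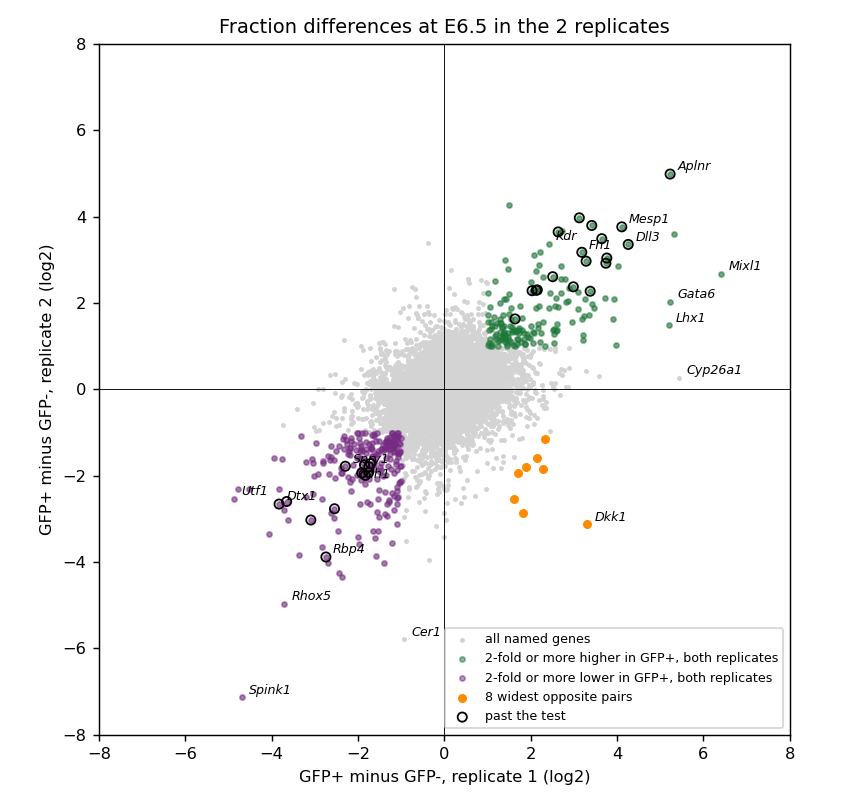
Difference between GFP+ and GFP- cells (log2) in replicate 1 (horizontal) and replicate 2 (vertical) for each of the 17097 named genes; rings mark the 30 genes past the test. The ringed genes lie near the diagonal, while Mixl1, Lhx1 and Cyp26a1 differ more in replicate 1 and Spink1 and Cer1 more in replicate 2.

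Transcription factors made up 7 of the 18 genes that rose in GFP+ cells. Snai1, the repressor of E-cadherin, stood at 10.83 and 11.09 in GFP+ cells, against 7.54 and 8.12 in GFP- cells. It rose by 3.13 (SE 0.18, limma adjusted p = 0.0111), and both GFP+ arrays were higher than both GFP- arrays. Sp5, a zinc finger factor induced by Wnt signalling whose promoter is shown above, stood at 8.09 and 8.12 in GFP+ cells, against 4.33 and 5.08 in GFP- cells. It rose by 3.40 (SE 0.23, limma adjusted p = 0.0197). Hoxb1, an anterior Hox gene, stood at 6.98 and 6.72 in GFP+ cells, against 3.24 and 3.80 in GFP- cells. Meis2, a homeodomain cofactor of Hox proteins, stood at 7.74 and 7.66 in GFP+ cells, against 4.33 and 3.87 in GFP- cells. The differences of Hoxb1 (3.33, SE 0.25, limma adjusted p = 0.0246) and Meis2 (3.61, SE 0.31, limma adjusted p = 0.0427) were measured against GFP- means below the median of all values, so their sizes are uncertain. Sall3, a zinc finger factor listed here among anterior and neural genes, stood at 8.23 and 8.41 in GFP+ cells, against 6.07 and 6.10 in GFP- cells. Its difference was 2.23 (SE 0.20, limma adjusted p = 0.0442), with replicates of each fraction close together. Otx1, a homeobox gene related to the head gene Otx2, stood at 5.66 and 5.38 in GFP+ cells, against 3.54 and 3.08 in GFP- cells, a rise of 2.21 (SE 0.21, limma adjusted p = 0.0480) from a GFP- mean below the median of all values. Otx1 entered the test through its GFP+ values of E6.5 alone, its only values above that median on the 8 arrays.

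Another 5 genes that rose encode 4 ligands or receptors and an adaptor. Aplnr, the G protein-coupled receptor of apelin and of the peptide Apela, had the largest difference of the 30. Its value was 8.52 and 8.68 in GFP+ cells, against 3.29 and 3.69 in GFP- cells. The rise was 5.11 (SE 0.24, limma adjusted p = 0.0111). The GFP- mean of Aplnr lay below the median of all values, so the size of its rise is uncertain. The second probe set of Aplnr, with a mean of 7.80 beside 8.14 for the set used, gave 2.08. Dll3, a Notch ligand family member that dampens Notch signalling in the cell that makes it, stood at 8.32 and 8.93 in GFP+ cells, against 4.06 and 5.58 in GFP- cells. Its rise was 3.81 (SE 0.26, limma adjusted p = 0.0197). Bmp7, a BMP ligand, stood at 7.14 and 7.09 in GFP+ cells, against 3.76 and 4.81 in GFP- cells, and the fractions differed by 2.83 (SE 0.30, limma adjusted p = 0.0480). Further probe sets of Bmp7 gave 1.46 and 0.70. Wnt2b, a Wnt ligand, stood at 8.48 and 8.40 in GFP+ cells, against 6.44 and 6.11 in GFP- cells, and the fractions differed by 2.16 (SE 0.22, limma adjusted p = 0.0480). Klhl6, a BTB-Kelch adaptor best known from B cells, stood at 6.93 and 7.42 in GFP+ cells, against 4.29 and 3.77 in GFP- cells, and the fractions differed by 3.14 (SE 0.32, limma adjusted p = 0.0480). The GFP- means of Bmp7 and Klhl6, like that of Aplnr, lay below the median of all values, so the sizes of their rises are uncertain too.

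The remaining 6 genes that rose were the enzyme gene Chst2 and genes of adhesion, matrix and the cytoskeleton. Fn1, the gene of the matrix protein fibronectin on which mesoderm cells migrate, stood at 10.89 and 10.67 in GFP+ cells, against 7.70 and 7.5 in GFP- cells. Its difference was 3.18 in each replicate (SE 0.19, limma adjusted p = 0.0111). Dlc1, a GTPase-activating protein, stood at 11.03 and 10.95 in GFP+ cells, against 7.38 and 7.46 in GFP- cells. It rose by 3.57 (SE 0.21, limma adjusted p = 0.0111), and the SD between the GFP- replicates was 0.06. The second probe set of Dlc1 gave 1.08, and the mean of both 2.33. Cdh11, a cadherin of mesenchymal cells, stood at 5.88 and 7.32 in GFP+ cells, against 2.76 and 3.35 in GFP- cells, and the fractions differed by 3.55 (SE 0.27, limma adjusted p = 0.0264). Its GFP- mean lay below the median of all values, and its GFP+ replicates were the most spread of the 18. Chst2, a carbohydrate sulfotransferase, stood at 8.07 and 8.44 in GFP+ cells, against 5.08 and 6.07 in GFP- cells, and the fractions differed by 2.68 (SE 0.26). Sh3pxd2a, the scaffold of podosomes known as Tks5, stood at 7.90 and 7.53 in GFP+ cells, against 5.39 and 4.92 in GFP- cells, and the fractions differed by 2.56 (SE 0.25). Prtg, the immunoglobulin-family receptor protogenin, stood at 9.60 and 9.72 in GFP+ cells, against 7.96 and 8.08 in GFP- cells, and the fractions differed by 1.63 (SE 0.17). These last 3 genes share a limma adjusted p of 0.0480. When the probe sets of a gene were averaged, Meis2 (2.28), Sh3pxd2a (1.52) and Chst2 (1.25) no longer passed, and the second Chst2 probe set gave -0.18 at a mean level of 4.14.

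**Figure D2:**
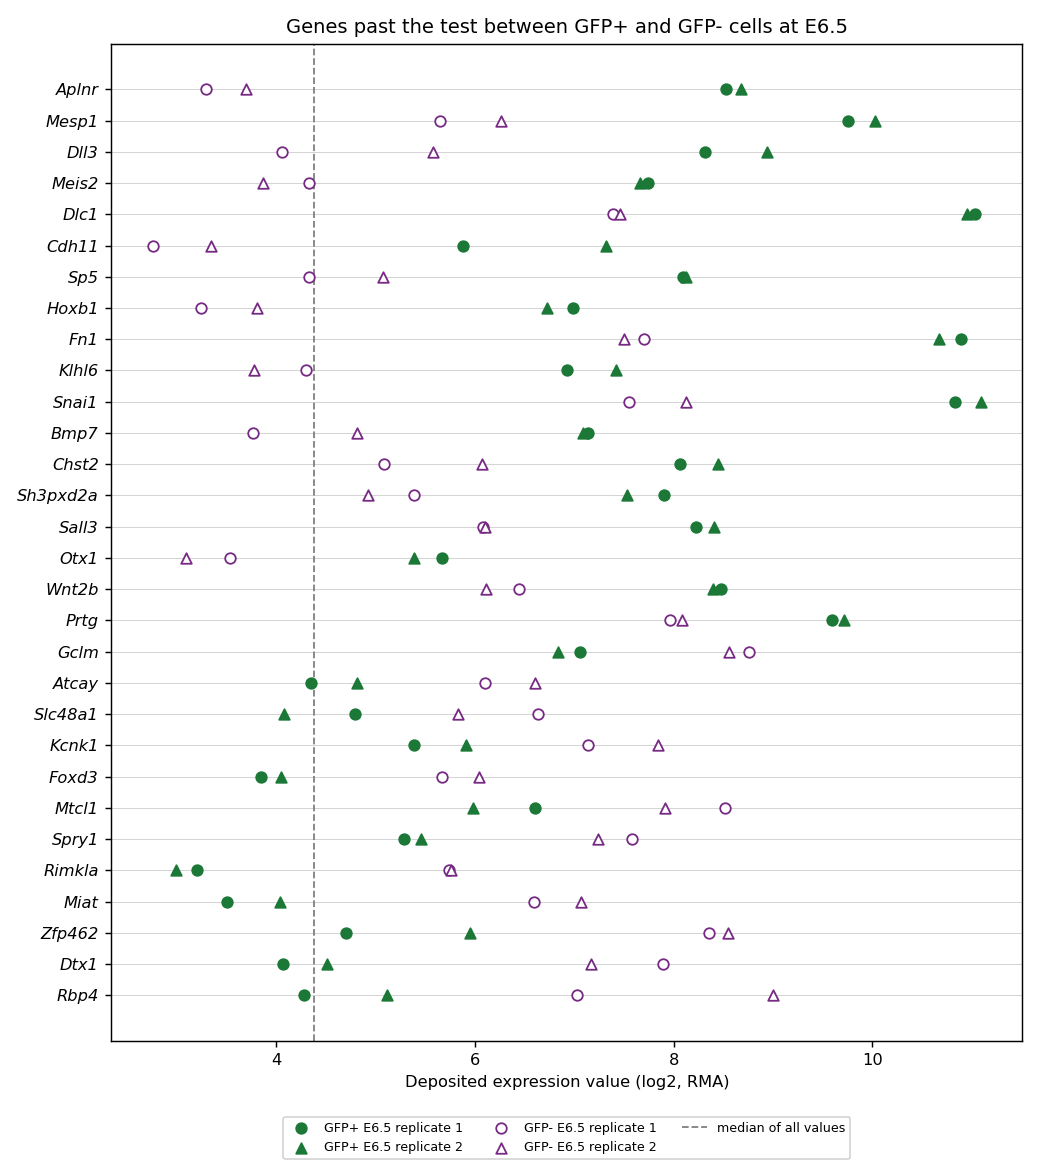
Deposited log2 value of each of the 30 genes past the test on the 4 arrays of E6.5, with GFP+ filled and GFP- open, replicate 1 as circles and replicate 2 as triangles; the dashed line is the median of all values, 4.38. In each of the 30 genes both GFP+ arrays lie on one side of both GFP- arrays. The test picked these genes for a difference between the fractions, so this separation is largely set by that choice.

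Among the 12 genes that fell, regulators of signalling and transcription came first. Spry1, a feedback inhibitor of FGF receptor signalling, stood at 5.28 and 5.46 in GFP+ cells, against 7.58 and 7.24 in GFP- cells. It fell by 2.04 (SE 0.22, limma adjusted p = 0.0480). Dtx1, a Deltex ubiquitin ligase of the Notch pathway, stood at 4.07 and 4.51 in GFP+ cells, against 7.89 and 7.17 in GFP- cells. It fell by 3.24 (SE 0.33, limma adjusted p = 0.0480). Both GFP+ arrays were below both GFP- arrays for these genes, and the GFP+ mean of Dtx1 lay below the median of all values. Foxd3, a forkhead factor of the pluripotent epiblast and later of neural crest, stood at 3.84 and 4.05 in GFP+ cells, against 5.67 and 6.04 in GFP- cells. It fell by 1.91 (SE 0.17, limma adjusted p = 0.0460), with GFP+ values below the median of all values. Foxd3 entered the test through its GFP- values of E6.5 alone, its only values above that median on the 8 arrays. Zfp462, a zinc finger gene, stood at 4.70 and 5.95 in GFP+ cells, against 8.35 and 8.55 in GFP- cells, and fell by 3.12 (SE 0.32, limma adjusted p = 0.0480). The long non-coding RNA Miat stood at 3.51 and 4.04 in GFP+ cells, against 6.60 and 7.06 in GFP- cells, and fell by 3.06 (SE 0.29, limma adjusted p = 0.0480). The GFP+ mean of Miat also lay below the median of all values, so the size of its fall is uncertain.

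The other 7 genes that fell encode enzymes, transporters and structural proteins. Rbp4, the carrier of retinol in blood and a gene of visceral endoderm, stood at 4.28 and 5.12 in GFP+ cells, against 7.02 and 9.0 in GFP- cells. It fell by 3.31 (SE 0.34, limma adjusted p = 0.0480), and the SD between its GFP- replicates was 1.40. Rimkla, an enzyme that joins N-acetylaspartate to glutamate, stood at 3.20 and 2.99 in GFP+ cells, against 5.74 and 5.76 in GFP- cells, and fell by 2.65 (SE 0.22, limma adjusted p = 0.0381). The GFP+ mean of Rimkla lay below the median of all values, so the size of its fall is uncertain. Rimkla entered the test through its GFP- values of E6.5 alone, its only values above that median on the 8 arrays. Gclm, the modifier subunit of the enzyme that limits glutathione synthesis, stood at 7.05 and 6.83 in GFP+ cells, against 8.76 and 8.55 in GFP- cells. Its differences were -1.71 and -1.72 in replicates 1 and 2. The haem transporter gene Slc48a1 stood at 4.79 and 4.08 in GFP+ cells, against 6.64 and 5.83 in GFP- cells, and the fractions differed by -1.80 (SE 0.19). The potassium channel gene Kcnk1 stood at 5.38 and 5.91 in GFP+ cells, against 7.14 and 7.84 in GFP- cells, and the fractions differed by -1.84 (SE 0.20). Mtcl1, a microtubule crosslinking factor, stood at 6.61 and 5.98 in GFP+ cells, against 8.52 and 7.92 in GFP- cells, and the fractions differed by -1.93 (SE 0.19). Its second probe set, of nearly the same level, gave 0.24 and -1.05 in replicates 1 and 2. Atcay, the gene of the neuronal protein caytaxin, stood at 4.35 and 4.81 in GFP+ cells, against 6.10 and 6.60 in GFP- cells, and the fractions differed by -1.77 (SE 0.18). Gclm, Slc48a1, Kcnk1, Mtcl1 and Atcay share a limma adjusted p of 0.0480. Slc48a1, Kcnk1 and Mtcl1 did not pass when probe sets were averaged.

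Genes of the primitive streak and nascent mesoderm were higher in GFP+ cells as a list. Of 18 tested, 3 rose by the test (Mesp1, Sp5 and Snai1) and 0 fell, beside 0.154% and 0.103% of the 11706 genes tested. By the 2-fold description 11 of 19 with a probe set were higher and 0 lower, beside 0.942% and 1.3% of all 17097 named genes, and the median difference was 1.85 (2.18 in replicate 1 and 1.52 in replicate 2), beside -0.0027 over all named genes. Regardless of size, 15 were higher and 1 was lower in both replicates, beside 27.6% and 28.7% of all named genes. The shares of named genes also apply to the lists that follow. Of all genes tested 0.256% passed in either direction, so a count of 0 past the test in a short list is near that share. The streak genes overlap with what the reporter selects for, and the members were chosen with earlier results known. Mixl1, a homeobox gene of the streak, stood at 10.91 and 10.57 in GFP+ cells, against 4.50 and 7.90 in GFP- cells. Lhx1, a homeobox gene of the anterior streak and mesoderm wings, stood at 9.63 and 10.26 in GFP+ cells, against 4.43 and 8.78 in GFP- cells. Both genes were even between GFP+ arrays, and the higher GFP- array was replicate 2. Their differences of 4.54 (SE 1.19, limma adjusted p = 0.263) and 3.34 (SE 1.08, limma adjusted p = 0.355) did not pass the test.

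Nodal signalling genes went both ways. Of 15 tested 0 passed, and of 16 with a probe set 1 was 2-fold higher and 0 lower (0.942% and 1.3% of all genes), 6 were higher and 9 lower in both replicates, and the median difference was -0.18. Nodal, the inducing ligand, stood at 6.96 and 6.95 in GFP+ cells, against 7.21 and 7.77 in GFP- cells. Lefty2, a secreted Nodal inhibitor of the streak and mesoderm, stood at 7.21 and 8.42 in GFP+ cells, against 5.08 and 5.67 in GFP- cells (difference 2.44, SE 0.37, limma adjusted p = 0.0922). Lefty1 differed by -1.05 (SE 0.28, limma adjusted p = 0.262). Cer1, a secreted inhibitor of Nodal, BMP and Wnt made by anterior visceral endoderm, stood at 4.56 and 4.0 in GFP+ cells, against 5.49 and 9.78 in GFP- cells. Most of that difference of -3.36 (SE 1.26, limma adjusted p = 0.428) came from GFP- replicate 2.

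Among Wnt ligands and receptors 1 of 21 tested rose (Wnt2b), beside 0.154% of genes tested. Of all 22, 4 were 2-fold higher and 1 lower (0.942% and 1.3% of all genes), with a median of 0.05. Wnt5a, a ligand that guides cell movements, stood at 5.59 and 6.44 in GFP+ cells, against 2.87 and 2.77 in GFP- cells (difference 3.20, SE 0.38, limma adjusted p = 0.0595). Wnt3, the ligand needed to form the streak, stood at 6.69 and 6.74 in GFP+ cells, against 4.12 and 4.82 in GFP- cells (difference 2.24, SE 0.54, limma adjusted p = 0.225). Of 16 Wnt targets and antagonists tested 1 rose (Sp5), and of 18 with a probe set 5 were 2-fold higher and 2 lower, beside the same shares, with a median of 0.62. The feedback target Axin2 stood at 7.86 and 8.24 in GFP+ cells, against 6.34 and 6.78 in GFP- cells, and the nuclear effector Lef1 at 8.83 and 9.47 in GFP+ cells, against 7.36 and 8.26 in GFP- cells. Neither difference, 1.49 and 1.34, passed the test (limma adjusted p = 0.0871 and 0.0872). The secreted antagonists had differences of opposite sign. Frzb stood at 9.82 and 9.54 in GFP+ cells, against 4.50 and 5.94 in GFP- cells (difference 4.46, SE 0.55, limma adjusted p = 0.0595). Sfrp1 stood at 5.04 and 4.86 in GFP+ cells, against 7.03 and 8.43 in GFP- cells (difference -2.78, SE 0.47, limma adjusted p = 0.119). Cyp26a1, which degrades retinoic acid, stood at 9.07 and 8.81 in GFP+ cells, against 3.63 and 8.54 in GFP- cells, so that the fractions were 5.44 apart in replicate 1 and 0.27 apart in replicate 2.

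The FGF list of 21 genes, all tested, had 0 genes that rose and 1 that fell (Spry1), beside 0.154% and 0.103% of genes tested. In it 3 genes were 2-fold higher and 2 lower (0.942% and 1.3% of all genes), and the median was 0.26. The ligand gene Fgf8 stood at 9.07 and 8.93 in GFP+ cells, against 8.07 and 8.98 in GFP- cells, which overlap. Fgf3 stood at 7.37 and 9.18 in GFP+ cells, against 5.87 and 4.91 in GFP- cells, and Fgf10 at 5.60 and 7.57 in GFP+ cells, against 4.20 and 4.59 in GFP- cells. Spred1, an inhibitor of the Ras arm of FGF signalling like Spry1, stood at 7.91 and 7.60 in GFP+ cells, against 4.66 and 5.50 in GFP- cells, the direction opposite to that of Spry1. The differences of Fgf3 (2.88), Fgf10 (2.19) and Spred1 (2.67) had limma adjusted p values of 0.183, 0.196 and 0.0922.

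In the BMP list 1 of 21 genes tested rose (Bmp7), beside 0.154% of genes tested. Of 23 with a probe set 5 were 2-fold higher and 1 lower (0.942% and 1.3% of all genes), and the median was 0.24. The ligand gene Bmp4, which the extraembryonic ectoderm makes at this stage, stood at 3.97 and 4.16 in GFP+ cells, against 5.50 and 6.69 in GFP- cells. The signal transducer gene Smad1 stood at 9.29 and 8.97 in GFP+ cells, against 6.09 and 7.34 in GFP- cells. Neither the Bmp4 difference (-2.03, limma adjusted p = 0.316) nor the Smad1 difference (2.41, limma adjusted p = 0.196) passed the test. In the Notch list 1 of 20 tested rose (Dll3) and 1 fell (Dtx1), beside 0.154% and 0.103% of genes tested, and the median over 23 was 0.07. The ligand gene Dll1 stood at 7.62 and 7.04 in GFP+ cells, against 6.0 and 6.30 in GFP- cells, and the target gene Hey1 at 7.17 and 6.98 in GFP+ cells, against 5.82 and 5.73 in GFP- cells, without passing the test (limma adjusted p = 0.235 and 0.208).

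Among migration signals and their receptors 1 of 25 tested rose (Aplnr), beside 0.154% of genes tested. Of 29 with a probe set 3 were 2-fold higher and 1 lower (0.942% and 1.3% of all genes), and the median was 0.14. Apela, a ligand of Aplnr, stood at 5.73 and 5.79 in GFP+ cells, against 5.28 and 5.96 in GFP- cells, which overlap. Epha4, an ephrin receptor gene, stood at 8.26 and 8.36 in GFP+ cells, against 5.02 and 6.65 in GFP- cells, and Sema6a, a transmembrane semaphorin gene, at 8.41 and 8.53 in GFP+ cells, against 10.03 and 10.25 in GFP- cells. Both were even within GFP+ cells and separate from GFP- cells, but their differences of 2.47 and -1.67 did not pass (limma adjusted p = 0.119 and 0.126).

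Mesenchymal genes were mostly higher and epithelial genes mostly lower in GFP+ cells. Of 17 mesenchymal genes of the epithelial-mesenchymal transition that were tested, 3 rose (Snai1, Cdh11 and Fn1) and 0 fell, beside 0.154% and 0.103% of genes tested. Of 19 with a probe set 6 were 2-fold higher and 0 lower (0.942% and 1.3% of all genes), 13 were higher and 3 lower in both replicates (27.6% and 28.7% of all genes), and the median was 0.50 (0.91 in replicate 1 and 0.50 in replicate 2). Of 27 epithelial genes tested 0 rose and 0 fell, beside the same shares of genes tested. Of 30 with a probe set 26 were lower and 1 was higher in both replicates, beside 28.7% and 27.6% of all genes. Of these 30, 11 were 2-fold lower and 0 higher, beside 1.3% and 0.942% of all genes, and the median was -1.03 (-0.86 in replicate 1 and -1.15 in replicate 2). The cadherin genes were mirror images. Cdh1, the gene of E-cadherin, stood at 5.84 and 6.14 in GFP+ cells, against 8.02 and 8.29 in GFP- cells (difference -2.16, SE 0.25, limma adjusted p = 0.0582). Cdh2, the gene of N-cadherin, stood at 8.47 and 9.15 in GFP+ cells, against 5.68 and 6.60 in GFP- cells (difference 2.67, SE 0.30, limma adjusted p = 0.0561). Neither passed the test. Krt18, a keratin gene of simple epithelia, stood at 6.08 and 6.78 in GFP+ cells, against 8.70 and 9.65 in GFP- cells, and the tight junction gene Cldn4 at 4.34 and 3.99 in GFP+ cells, against 7.54 and 5.68 in GFP- cells. Crb3, an apical polarity gene, stood at 5.93 and 7.13 in GFP+ cells, against 9.01 and 8.74 in GFP- cells. Epcam, a surface adhesion gene of epithelia, stood at 8.82 and 8.20 in GFP+ cells, against 9.64 and 9.62 in GFP- cells. The visceral endoderm is an epithelium too, and its genes were low in GFP+ cells as well; its part in the epithelial result was not tested.

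Fn1 was the only listed matrix gene that passed the test. Of 17 matrix genes tested 1 rose (Fn1), beside 0.154% of genes tested, and of 23 with a probe set 2 were 2-fold higher (0.942% of all genes), with a median of 0.07. Vcan, a matrix proteoglycan gene, stood at 6.73 and 7.45 in GFP+ cells, against 4.23 and 6.09 in GFP- cells (limma adjusted p = 0.268).

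Of 20 epiblast and pluripotency genes tested 0 passed, beside 0.256% of genes tested. Of 24 with a probe set 6 were 2-fold lower and 0 higher, beside 1.3% and 0.942% of all genes, and the median was -0.36 (-0.62 in replicate 1 and -0.53 in replicate 2). Pou5f1, the gene of the pluripotency factor Oct4, stood at 11.35 and 10.87 in GFP+ cells, against 11.12 and 10.98 in GFP- cells, and Nanog at 7.67 and 7.76 in GFP+ cells, against 7.78 and 8.11 in GFP- cells. Utf1, a chromatin factor of pluripotent cells, stood at 6.13 and 8.40 in GFP+ cells, against 11.001 and 10.93 in GFP- cells. Slc7a3, a transporter of cationic amino acids, stood at 5.58 and 7.93 in GFP+ cells, against 10.36 and 10.24 in GFP- cells. Pou5f1 overlapped between fractions, while Utf1 and Slc7a3 were even in GFP- cells and lower by 2.30 to 4.87 within the replicates in GFP+ cells, with the lower GFP+ value in replicate 1. Grb7, a receptor adaptor gene, showed the same order, at 5.54 and 7.0 in GFP+ cells, against 9.37 and 9.30 in GFP- cells. Utf1, Slc7a3 and Grb7 had limma adjusted p values of 0.0858, 0.132 and 0.0866. Anterior epiblast and neural genes had a median of -0.17 over 17 genes, with 1 of 16 tested that rose (Sall3), beside 0.154% of genes tested. Of the 17, 2 were 2-fold higher and 0 lower (0.942% and 1.3% of all genes). In both replicates 3 were higher and 8 lower (27.6% and 28.7% of all genes).

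Genes of later mesoderm derivatives were grouped by lineage. Of 14 paraxial mesoderm genes tested 1 rose (Dll3), beside 0.154% of genes tested. Of 18 with a probe set 4 were 2-fold higher and 0 lower (0.942% and 1.3% of all genes), 14 were higher in both replicates (27.6% of all genes), and the median was 0.92 (0.51 in replicate 1 and 0.60 in replicate 2). Tbx6, Msgn1 and Mesp2, which are among these 4, also belong to the list of streak genes. Tbx6, a T-box factor of paraxial mesoderm, stood at 6.14 and 6.78 in GFP+ cells, against 3.95 and 3.90 in GFP- cells, and its target Msgn1 at 6.29 and 6.48 in GFP+ cells, against 4.75 and 4.86 in GFP- cells. Mesp2, the close relative and neighbour of Mesp1, stood at 6.78 and 7.24 in GFP+ cells, against 4.08 and 4.37 in GFP- cells. All of these were even within each fraction, and their differences of 2.54, 1.58 and 2.78 did not pass (limma adjusted p = 0.0595, 0.0831 and 0.104).

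Of 18 cardiac regulators, all tested, 0 passed and 3 were 2-fold higher and 1 lower (0.942% and 1.3% of all genes), with a median of 0.10. The zinc finger factors Gata4 and Gata6 followed Mixl1 in shape. Gata6 stood at 9.86 and 9.83 in GFP+ cells, against 4.64 and 7.80 in GFP- cells, and Gata4 at 8.34 and 9.08 in GFP+ cells, against 4.45 and 7.46 in GFP- cells (limma adjusted p = 0.211 and 0.266). Of 10 contractile genes tested 0 passed, 0 of 12 with a probe set were 2-fold apart, and Tnnt2, the gene of cardiac troponin T, stood at 3.43 and 3.49 in GFP+ cells, against 3.59 and 3.45 in GFP- cells, below the median of all values on each array. Of 17 endothelial and haematopoietic progenitor genes tested 0 passed, and 1 of 22 with a probe set was 2-fold higher, beside 0.942% of all genes. That gene was Kdr, the VEGF receptor of early mesoderm, at 6.73 and 8.49 in GFP+ cells, against 4.31 and 5.11 in GFP- cells (difference 2.90, SE 0.84, limma adjusted p = 0.308).

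**Figure D3:**
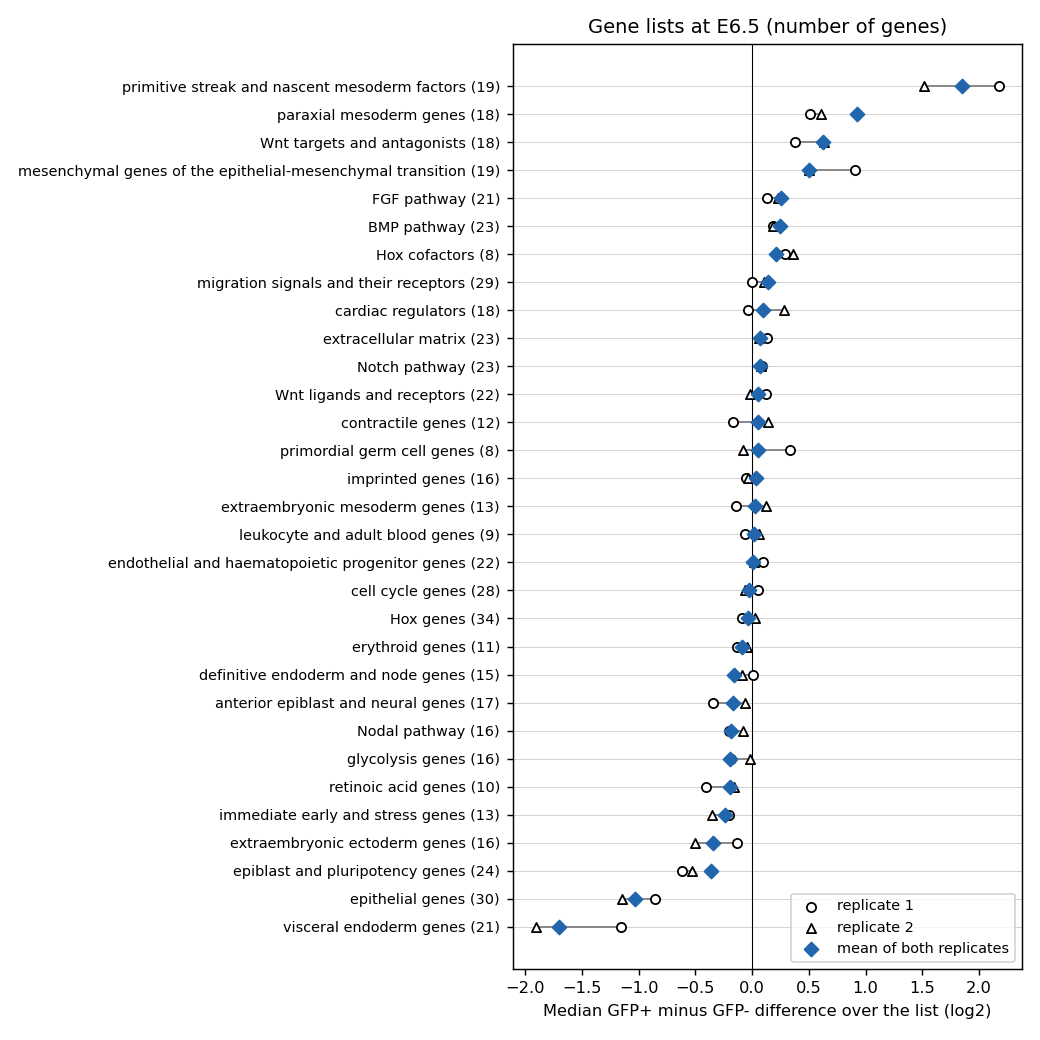
Median over the genes of each list of the GFP+ minus GFP- difference (log2), in replicate 1 (circles), replicate 2 (triangles) and of the mean of both replicates per gene (diamonds, which can lie outside the other points), with the number of genes of each list in brackets. Streak genes have the highest median, 1.85, and visceral endoderm genes the lowest, -1.70.

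Markers of other cells of the embryo were looked for in both fractions, since the sort kept any living cell. Visceral endoderm genes were low in GFP+ cells. Of 18 tested, 0 rose and 1 (Rbp4) fell, beside 0.154% and 0.103% of genes tested. Of 21 with a probe set 10 were 2-fold lower and 0 higher, beside 1.3% and 0.942% of all genes, and 19 were lower in both replicates, beside 28.7%. The median difference was -1.70 (-1.15 in replicate 1 and -1.91 in replicate 2). Values summed over the list on the linear scale were 419 and 548 in GFP+ replicates 1 and 2, against 1363 and 5757 in GFP- replicates 1 and 2. Visceral endoderm markers thus stood apart between the GFP- replicates as well as between the fractions: 19 of 21 were higher in GFP- replicate 2 than in GFP- replicate 1, 17 of them by 2-fold or more, beside 53.9% and 10.5% of all genes. The median gap was 1.62 between the GFP- replicates, against 0.28 between the GFP+ replicates, and over all genes it was 0.06 and 0.08. The part of visceral endoderm cells in the other differences was not tested.

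Spink1, a secreted protease inhibitor gene, had the largest difference of the 383 genes at least 2-fold apart. It stood at 3.47 and 3.33 in GFP+ cells, against 8.16 and 10.46 in GFP- cells (difference -5.91, SE 2.11, limma adjusted p = 0.400). The apolipoprotein gene Apoa1 stood at 4.72 and 5.0 in GFP+ cells, against 7.42 and 9.02 in GFP- cells. Dab2, an endocytic adaptor of visceral endoderm, stood at 4.79 and 5.57 in GFP+ cells, against 7.23 and 9.81 in GFP- cells. In each of these genes both GFP+ arrays were below both GFP- arrays and the highest array was GFP- replicate 2. Apoa1 (-3.36), Apob (-3.35) and Dab2 (-3.34) had limma adjusted p values of 0.0866, 0.200 and 0.118.

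**Figure D4:**
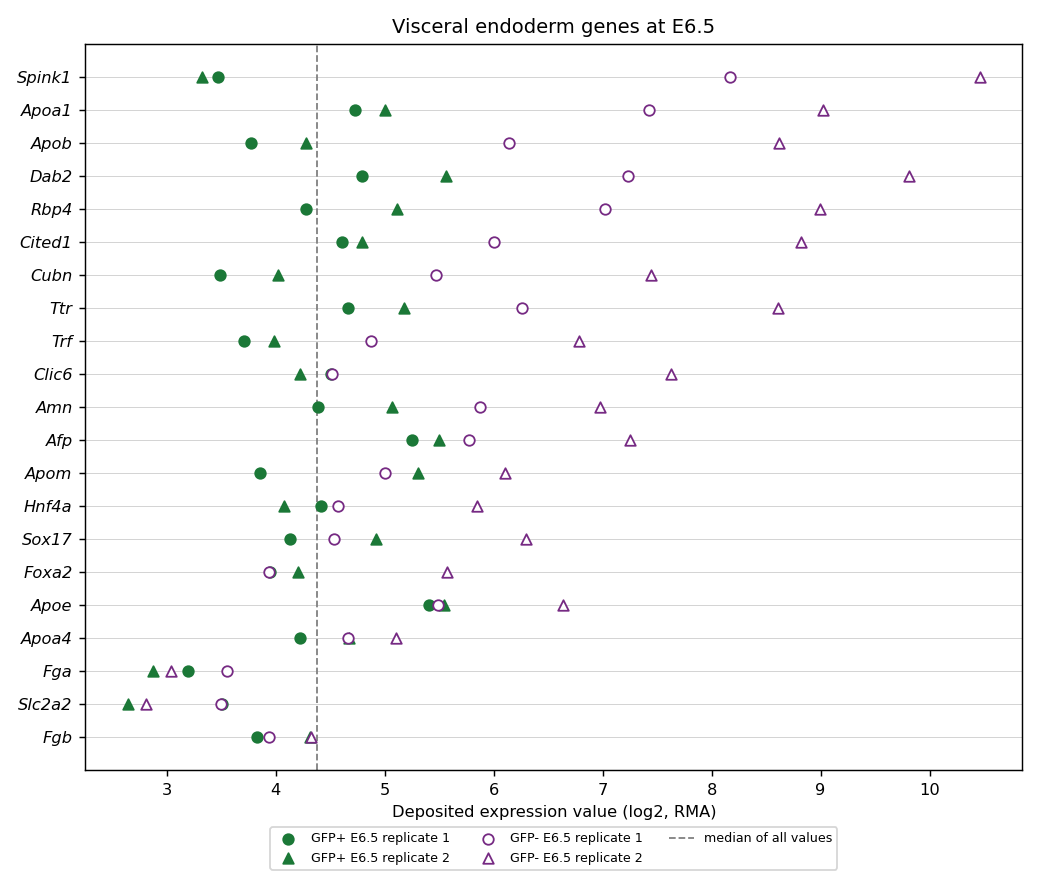
Deposited log2 value of the 21 visceral endoderm genes on the 4 arrays of E6.5, with GFP+ filled and GFP- open, replicate 1 as circles and replicate 2 as triangles; the dashed line is the median of all values. GFP- replicate 2 is the highest array for most genes, and GFP- replicate 1 lies between it and the GFP+ arrays for genes such as Spink1, Apoa1, Apob and Dab2.

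Extraembryonic ectoderm genes had a median of -0.34 over 16 genes, all tested, with 0 past the test and 5 that were 2-fold lower (1.3% of all genes), and 14 of the 16 were higher in GFP- replicate 2 than in GFP- replicate 1 (53.9% of all genes). Their summed linear values were 2576 and 1940 in GFP+ cells, against 1557 and 2913 in GFP- cells, so the sums overlap. Such a sum is led by the genes of highest value, and the list includes Eomes, which is also in the list of streak genes. The sums therefore do not show that the amount of this tissue was alike. Rhox5, an X-linked homeobox gene of extraembryonic tissues, stood at 4.71 and 5.02 in GFP+ cells, against 8.42 and 9.98 in GFP- cells (difference -4.34, SE 0.95, limma adjusted p = 0.187). Elf5, a factor that defines the trophoblast, stood at 3.92 and 3.82 in GFP+ cells, against 5.09 and 6.29 in GFP- cells. Of 13 definitive endoderm and node genes tested 0 passed. Of 15 with a probe set 1 was 2-fold higher (Lhx1, described above) and 1 lower (Trh), beside 0.942% and 1.3% of all genes. In both replicates 6 were higher and 7 lower (27.6% and 28.7% of all genes), and the median was -0.16. Trh, the gene of thyrotropin-releasing hormone, stood at 6.70 and 6.83 in GFP+ cells, against 10.32 and 9.86 in GFP- cells (limma adjusted p = 0.101). Of 10 extraembryonic mesoderm genes tested 0 passed, and the median over 13 was 0.03. Foxf1, a forkhead factor of that tissue, stood at 4.03 and 7.72 in GFP+ cells, against 3.88 and 4.95 in GFP- cells, so that only GFP+ replicate 2 stood apart.

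Of the blood and germ cell markers, 7 of 11 erythroid, 4 of 9 leukocyte and 4 of 8 germ cell genes averaged below the median of all values in both fractions. The share of all genes below it in both fractions was not counted, so these counts have no background. Of 7 erythroid genes tested 0 passed, and the embryonic globin gene Hbb-bh1 stood at 3.33 and 3.35 in GFP+ cells, against 3.19 and 3.16 in GFP- cells. The erythropoietin receptor gene Epor was the exception by size, at 4.40 and 5.01 in GFP+ cells, against 6.03 and 6.70 in GFP- cells. Of 6 leukocyte and adult blood genes tested 0 passed, 0 of 9 were 2-fold apart, and the common leukocyte antigen gene Ptprc stood at 2.85 and 2.23 in GFP+ cells, against 2.92 and 2.32 in GFP- cells. Of 8 primordial germ cell genes only 4 were tested and 0 passed. Ifitm1, a membrane protein gene also made in early mesoderm, stood at 9.65 and 10.16 in GFP+ cells, against 5.92 and 8.05 in GFP- cells (limma adjusted p = 0.110), while Dppa3, a gene of germ cells, stood at 3.79 and 3.61 in GFP+ cells, against 3.85 and 3.75 in GFP- cells.

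Of the Hox cluster genes, 34 had a probe set but 17 were tested. Of these 17, 1 rose (Hoxb1) and 0 fell, beside 0.154% and 0.103% of genes tested. Of the 34, 1 was 2-fold higher and 0 lower (0.942% and 1.3% of all genes), and the median was -0.04. In both fractions 21 averaged below the median of all values, a count that also has no background. Among 8 Hox cofactors, all tested, 1 rose (Meis2), beside 0.154% of genes tested. Meis1, a relative of Meis2, stood at 3.75 and 3.81 in GFP+ cells, against 3.33 and 4.93 in GFP- cells. Of 15 imprinted genes tested 0 passed. Peg3 stood at 9.48 and 9.24 in GFP+ cells, against 6.01 and 7.35 in GFP- cells, and Phlda2 at 7.66 and 9.16 in GFP+ cells, against 6.77 and 6.94 in GFP- cells (limma adjusted p = 0.119 and 0.240). Of 10 retinoic acid genes, all tested, 0 passed, and Crabp2, a retinoic acid binding protein gene, stood at 6.28 and 7.27 in GFP+ cells, against 9.08 and 8.05 in GFP- cells.

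The cell cycle, glycolysis and stress lists held 0 genes past the test, beside 0.256% of genes tested, so counts of 0 in lists this short are near that share. Of 27 cell cycle genes tested 0 passed, and of 28 with a probe set 1 was 2-fold higher, beside 0.942% of all genes. That was Ccnd2, the gene of cyclin D2, at 10.08 and 9.88 in GFP+ cells, against 7.49 and 8.53 in GFP- cells (difference 1.97, SE 0.34, limma adjusted p = 0.119). Of 16 glycolysis genes and 13 immediate early and stress genes, all tested, 0 passed and 0 were 2-fold apart, with medians of -0.19 and -0.24. Among listed genes averaging above 8 in both fractions, the 8 with the smallest differences were Gapdh, Ccna2, Tpi1, Mcm2, Pkm, Lin28a, Snrpn and Tmsb10, which are genes of glycolysis, the cell cycle, RNA binding, splicing and actin binding. Kdm5d, a Y-linked gene, was higher in replicate 1 of both fractions, at 5.68 and 3.22 in GFP+ cells, against 5.59 and 3.78 in GFP- cells. Eif2s3y, also Y-linked, was at 5.41 and 3.58 in GFP+ cells, against 3.81 and 5.16 in GFP- cells, so that the higher array was replicate 1 in GFP+ and replicate 2 in GFP- cells. The Y-linked gene Uty was at 3.94 and 2.83 in GFP+ cells, against 3.53 and 3.29 in GFP- cells, all below the median of all values. Xist, the RNA that silences an X chromosome, was at 9.17 and 9.11 in GFP+ cells, against 9.71 and 9.09 in GFP- cells.

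Several genes outside these lists stood among the widest 2-fold differences without passing the test. Pcdh7, a protocadherin gene, was at 6.95 and 6.84 in GFP+ cells, against 2.93 and 3.97 in GFP- cells, and Gas1, a hedgehog co-receptor gene, at 9.05 and 8.41 in GFP+ cells, against 5.11 and 6.32 in GFP- cells. On the lower side, Nav1, a gene of a microtubule-binding protein, was at 4.17 and 4.30 in GFP+ cells, against 7.53 and 8.12 in GFP- cells (difference -3.60, SE 0.40, limma adjusted p = 0.0561). Further probe sets of Nav1, of lower level, gave only -0.52, -0.30 and -0.06. The ubiquitin ligase gene Trim2, the RNA-binding protein gene Elavl3 and the deubiquitinase gene Uchl1, known from neurons, had differences of -3.70, -3.41 and -3.26. Further probe sets of Elavl3 gave -0.74, at a mean level of 6.48 beside 6.83 for the set used, and -1.40. Erbb3, a receptor of neuregulins, was at 4.93 and 5.28 in GFP+ cells, against 8.13 and 7.77 in GFP- cells, and the membrane protein genes Tmem54 and Mal2 had differences of -3.24 and -2.87. Of these, Tmem54 (limma adjusted p = 0.0581), Uchl1 (0.0595) and Mal2 (0.0595) came nearest to the threshold after Nav1. The second probe set of Erbb3 gave -3.57, beside -2.85 for the set used.

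The replicates contradicted each other in 35 genes. The 8 with the widest gap were Dkk1, Lrig1, Mrs2, Acp5, Gadd45a, Fadd, Tfpi and Sgce. In all 8 the highest of the 4 arrays was GFP- replicate 2 and the lowest was GFP- replicate 1. Picking genes with opposite directions limits which arrays can be highest and lowest, so this order is partly set by that choice, but other orders were possible. The cause of the order was not tested. Dkk1, a secreted Wnt inhibitor of the anterior visceral endoderm and of mesoderm, stood at 6.30 and 4.40 in GFP+ cells, against 3.00 and 7.52 in GFP- cells. Its difference was 3.31 in replicate 1 and -3.12 in replicate 2, and its mean of 0.09 describes neither. For Lrig1, an inhibitor of ErbB receptors, the differences were 1.81 and -2.86.

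At E7.5 the same genes differed less between the fractions. Of the 18 genes that rose at E6.5, 16 were higher in GFP+ cells in both replicates at E7.5 and all 18 by a smaller amount, and 3 remained 2-fold higher in both. Of the 12 that fell, 8 were lower in both replicates at E7.5, all 12 by a smaller amount, and 2 remained 2-fold lower. Mesp1 differed by 0.79 at E7.5 and Aplnr by 1.02, while Miat still differed by -2.08 and Klhl6 by 1.77. By the 2-fold description 45 genes (0.263%) lay above and 66 (0.386%) below GFP- cells in the GFP+ cells of E7.5. Of the 161 higher at E6.5, 83 were higher and 17 lower in both replicates at E7.5, and of the 222 lower at E6.5, 131 were lower and 12 higher. The shares of all genes higher or lower in both replicates at E7.5 were not counted, so these counts of direction have no background. The test of the difference itself, the E6.5 difference minus the E7.5 difference in limma, called 0 of 11706 genes (0%, lowest adjusted p = 0.288, 761 genes at an unadjusted p under 0.05). Limma called 0 genes (0%) between the fractions at E7.5 (lowest adjusted p = 0.554, 755 genes at an unadjusted p under 0.05), and 1261 genes reached an unadjusted p under 0.05 at E6.5. Genes that pass a threshold at E6.5 are chosen for a large difference there, so a smaller difference at E7.5 is partly set by that choice.

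**Figure D5:**
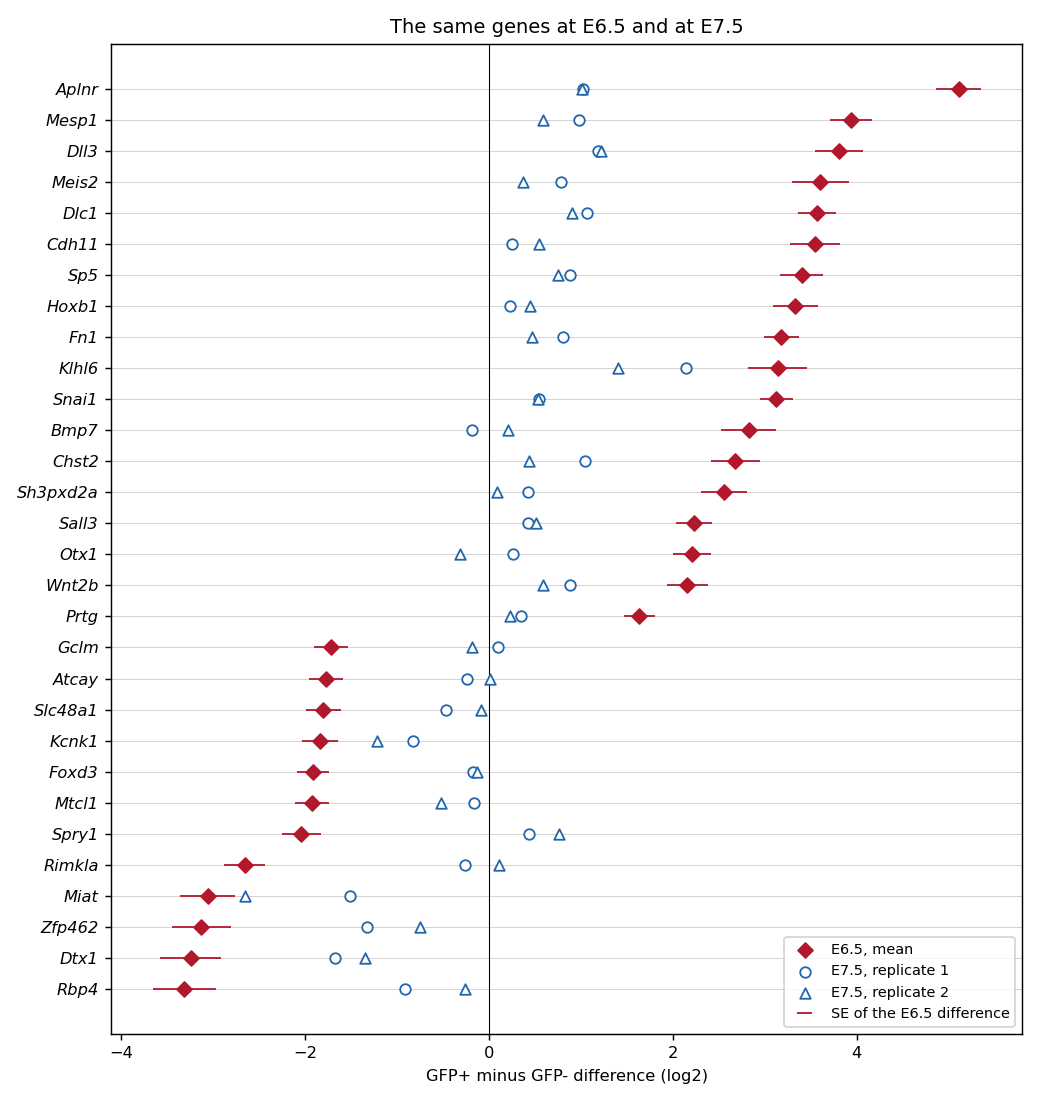
GFP+ minus GFP- difference (log2) of the 30 genes past the test at E6.5 (diamonds with the standard error of the fit) and in each replicate at E7.5 (open circles and triangles). The E7.5 points of all 30 genes average closer to 0 than the E6.5 value, and those of Spry1 lie on the other side of 0.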

How the data were processed

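Each of 8 arrays measured amplified RNA of 50 sorted cells, with 2 arrays in each of 4 groups. Values were deposited on the log2 scale, 1 per probe set and array. The authors used RMA for them, per the submitters' processing notes, and its version is not given in the sources used here. Of 45141 probe sets, 104 are controls, 28898 have a gene symbol of their own in the platform annotation, 551 share several symbols and 15588 have none. Entrez identifiers tied 28689 of them to genes of GRCm38.p6, which changed 0 symbols.

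Each gene is represented by the probe set of highest mean. Testing required values above 4.38, the median of all values, on 2 or more of the 8 arrays. This kept 11706 of 17097 genes, and the 5391 others appear only in the 2-fold counts and medians. Of the genes past the test, Otx1, Rimkla and Foxd3 met the filter only through the fraction of E6.5 in which they were high. Levels of different genes are not comparable. No measure of background was used, so a difference against a fraction below that median has an uncertain size. Array medians differed between replicate numbers more than within them, and the cause was not tested.

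Genes were tested with limma 3.58.1 (R 4.3.3, lmFit and eBayes) using 4 group means and the replicate number as a block (3 residual and 2.62 prior degrees of freedom). P-values were adjusted by Benjamini-Hochberg over all genes tested. The block follows the within-replicate differences. In a check of the pairing, arrays that share a number deviated together from the means of their groups. Across genes the correlation was 0.441 to 0.556 in the 6 pairs of groups, which does not show a shared source of embryos. Tests were two-sided, and p-values measure the spread between these arrays, whose number limits the precision. The script was tested on simulated data.

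The comparison, the gene lists and the tests were chosen with earlier results of these data known. Genes named are those past the test, the 20 highest and 20 lowest 2-fold differences whose higher fraction averaged above the median of all values, the members of each list that passed, its 4 largest differences and its first 2 members, the 8 widest opposite pairs, the 8 most even listed genes above 8 in both fractions, and sex-linked genes. Promoters were matched to RefSeq by gene. Genes with no probe set of their own symbol were not analysed here, and the genes of 1 list are not reported here as a group. Alternatives covered the block, the arrays in the fit, the filter, probe sets, normalization, the variance trend and single arrays.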

Additional observations from a re-analysis of the deposited data

Results flagged for a closer look

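Of 189 genes picked by the naming rule, 14 had a difference of one sign at E6.5 and the other at E7.5, in both replicates of each stage, beside 12% of all 17097 genes. Only 3 of them, Spry1, Dlk1 and Ccnd2, were 2-fold apart in both replicates at E6.5. The limma test of the E6.5 difference minus the E7.5 difference passed for none of the 14 (adjusted p from 0.288 to 0.976). Spry1, the feedback inhibitor of FGF signalling, differed by -2.04 at E6.5 and by 0.60 at E7.5, a gap between the stages of -2.64 (SE 0.31). Its levels at E7.5 were 6.19 and 6.43 in GFP+ cells, against 5.75 and 5.66 in GFP- cells. Dlk1, an imprinted gene of the Notch ligand family, differed by 1.46 at E6.5 and by -0.72 at E7.5, with 2.18 between the stages (SE 0.62). Ccnd2 differed by 1.97 at E6.5 and by -0.38 at E7.5, with 2.35 between the stages (SE 0.48). The globin gene Hbb-bh1 differed by 0.14 and 0.19 in replicates 1 and 2 at E6.5 and by -2.43 at E7.5, with 2.59 between the stages. The signalling genes with opposite signs were Cer1 (-4.17 between the stages), Lefty1 (-1.44), the Wnt receptor gene Fzd5 (-2.45) and the ligand gene Wnt3a (1.42). For retinoic acid genes the gap was -2.57 for Stra6 and -0.60 for Aldh1a2. It was 1.86 for Foxf1, 1.52 for the Hox cofactor gene Pknox1, -1.55 for the troponin gene Tnni1 and -0.0859 for the proliferation marker gene Mki67.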

How the results depend on the processing

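The count of 30 genes depended on how the spread was estimated. Without the replicate block 9 genes passed, 8 higher and 1 lower in GFP+ cells, all among the 30; with a block for each replicate number at each stage 1 passed, and with the block as a random effect 118 did. On the 4 E6.5 arrays alone 0 passed. Leaving out each array in turn, in a fit where a lone array is taken to vary like the other groups, gave from 0 to 0 genes. With no filter on low values 17 passed, with each array centred on its median 19, with the mean of all probe sets 70 (24 of the 30) and with an intensity trend in eBayes 74. A filter on the mean and quantile normalization each gave 28. Otx1 and Rimkla had no value under the filter on the mean. All 30 kept their direction under every setting that gave them a value. For the difference between stages, the random effect called 1 gene and the trend 4, while the other settings called 0. The 2-fold description of 383 genes became 1012 at 1.5-fold and 72 at 4-fold. The median of the visceral endoderm genes was -1.15 without replicate 2 and -1.91 without replicate 1. Averaging probe sets moved Bmp7 to 1.66, Dlc1 to 2.33 and Mtcl1 to -1.16. The causes were not tested. With 2 arrays a fraction, a p that missed the threshold does not show that values were alike.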
